A study of Sus scrofa with 5 samples.

Results

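The NF-kB system was followed through 10 genes in kidney biopsies of a pig-to-human xenotransplantation, namely the subunit genes RELA, NFKB1, REL, RELB and NFKB2 and the inhibitor or regulator genes NFKBIA, NFKBIE, TNFAIP3, NFKBIZ and BCL3. The genes were chosen by symbol. They and the lists used below were chosen with earlier results of these data known. All 10 were present among the 15235 symbols of the pig count table, all 10 passed the filter on low counts that left 12620 genes, and all 10 were also present in the human count table. The xenograft group held 1 core biopsy at each of 12, 24 and 48 h after transplantation of a pig kidney into a human recipient, the second such case in the study. As controls there were 2 libraries of untransplanted kidney at 0 h, called control replicates 1 and 2. The labels used here give no genotype, strain or age for the animals, the biopsies came from a single graft, and nothing states whether separate animals gave the control libraries. The p-values below therefore measure the spread between these libraries, which may be technical, and in the xenograft that spread includes change with time.

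NF-kB is a family of dimeric transcription factors that carries signals from tumour necrosis factor, interleukin and Toll-like receptors to inflammatory genes. In resting cells the dimers are held in the cytoplasm by IkB proteins, and an IkB kinase marks these for destruction when a receptor is engaged. Several inhibitor genes are themselves NF-kB targets, so that activation is followed by renewed synthesis of the brake. In the kidney the pathway is active in tubular epithelium, endothelium and leukocytes during ischaemic and immune injury.

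The pig table held 56129926 to 66169176 counts per biopsy and 65919506 and 71108823 counts in the controls, so counting error was small for these genes. Mitochondrial genes took 11.8% to 14.5% of the pig-table counts in the biopsies, against 21.9% and 33.4% in the controls. Levels are given as CPM, the count of a gene relative to the size of its library, after TMM scaling, which sets libraries on a common scale through genes that differ little between them. The proximal tubule endocytosis receptor gene LRP2, a marker of the labelled tissue, was at 470, 1050 and 873 CPM in the 12, 24 and 48 h biopsies, against 3350 and 3120 CPM in the controls. Each sample was homogenised tissue, in which fewer cells of a type and less RNA per cell cannot be told apart.

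Most of the 10 genes were higher in the graft, and the inhibitors NFKBIA and NFKBIE had the largest fitted rises. Of the 10 genes, 7 rose and 0 fell in the 3 biopsies against the 2 controls (edgeR quasi-likelihood test, Benjamini-Hochberg adjusted p under 0.05 over all 12620 genes, with 0 of the 10 lower also at an unadjusted p under 0.05 and 0 lower by DESeq2). Over all genes tested, 18.5% were called higher and 19.0% lower. The median log2 fold change of the 10 genes was 0.66, against 0.03 for all genes tested. When control replicate 1 or control replicate 2 was left out, 2 of the 10 were called in each fit, and both times these were NFKBIA and NFKBIE. Over all genes 738 and 464 were then called higher, and each of these fits has a single control and fewer residual degrees of freedom. All 3 biopsies lay above both controls for 8 of the 10 genes, a pattern that 33.7% of all genes tested shared.

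**Figure D1:**
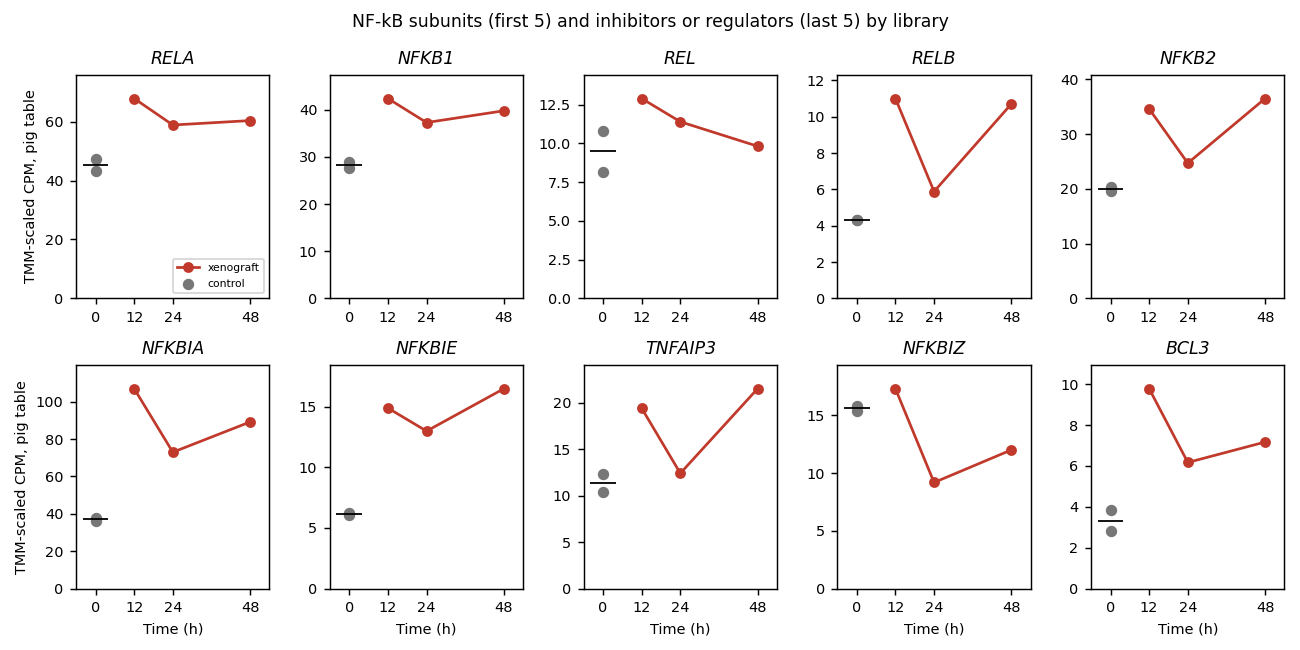
TMM-scaled CPM (vertical axes, from 0) of each of the 10 genes against time in hours, with a red point and line for the xenograft biopsies, grey points for the 2 control libraries and a bar for their mean. NFKBIA stands at 107, 73.0 and 89.2 CPM in the biopsies and at 37.7 and 36.3 CPM in the controls, and the 24 h biopsy is the lowest of the 3 biopsies in 9 of the 10 panels.

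RELA encodes the main transactivating subunit of the classical pathway. It was at 67.9, 58.9 and 60.4 CPM in the 12, 24 and 48 h biopsies, against 43.2 and 47.2 CPM in control replicates 1 and 2. All 3 biopsies were above both controls, and the fitted difference was 1.38-fold (log2 0.47 ± 0.12, approximate SE, 3 biopsies against 2 controls, edgeR adjusted p = 0.0253). NFKB1 encodes the precursor of the DNA-binding partner of RELA. It was at 42.4, 37.3 and 39.8 CPM in the biopsies, against 29.0 and 27.7 CPM in the controls. The groups again did not overlap, with a 1.41-fold rise (log2 0.49 ± 0.12, edgeR adjusted p = 0.0186). Of all member profiles over the 5 libraries, those of RELA and NFKB1 lay closest to each other, at a distance of 0.15 on the log2 scale after each gene was centred on its own mean. Without control replicate 1 and 2 in that order, RELA was at log2 0.40 and 0.53 (edgeR adjusted p = 0.184 and 0.124) and NFKB1 at log2 0.53 and 0.46 (edgeR adjusted p = 0.107 and 0.158). The calls were thus lost at similar fold changes.

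REL encodes c-Rel, a subunit best known from lymphoid and myeloid cells. It was at 12.9, 11.4 and 9.82 CPM at 12, 24 and 48 h, against 10.8 and 8.14 CPM in the controls. The 48 h biopsy lay between the controls, which themselves differed by 33.1% of the lower, and the difference was not called (log2 0.26 ± 0.20, edgeR adjusted p = 0.332). In the RefSeq annotation of the pig assembly Sscrofa11.1, REL overlaps the protein-coding gene PUS10. The strand setting of the counting is not given in the sources used here, so reads of overlapping genes cannot be told apart.

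RELB and NFKB2 encode the dimer of the alternative pathway, in which the NFKB2 precursor is processed after stimulation of receptors such as LTBR and CD40. RELB was at 11.0, 5.88 and 10.7 CPM in the 12, 24 and 48 h biopsies, against 4.30 and 4.32 CPM in the controls. All biopsies were higher than both controls, but the 24 h value was close to the controls and the 12 and 48 h values close to each other. The fitted rise was 2.13-fold (log2 1.09 ± 0.30, edgeR adjusted p = 0.0287), the largest among the 5 subunit genes. NFKB2 was at 34.6, 24.7 and 36.5 CPM in the biopsies, against 20.3 and 19.6 CPM in the controls. Its rise was 1.60-fold (log2 0.68 ± 0.19, edgeR adjusted p = 0.0287), with no overlap between the groups and the same dip at 24 h. Without control replicate 1 or 2 neither gene was called by edgeR, although the fold changes were about as large. RELB was at log2 1.09 in both fits (adjusted p = 0.153 and 0.170) and NFKB2 at log2 0.70 and 0.65 (adjusted p = 0.139 and 0.179). Each of these genes overlaps an annotated long non-coding RNA gene in the same annotation.

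NFKBIA encodes IkB alpha, the inhibitor that is resynthesised fastest after NF-kB activation. Its level was 107, 73.0 and 89.2 CPM in the 12, 24 and 48 h biopsies, against 37.7 and 36.3 CPM in the controls. The lowest biopsy was still well above the higher control. The rise was 2.42-fold (log2 1.28 ± 0.18, edgeR adjusted p = 0.00247) and stayed called in each fit that left out a library, with adjusted p from 0.00111 to 0.0462. An annotated long non-coding RNA gene overlaps it.

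NFKBIE encodes IkB epsilon, an inhibitor that acts with slower kinetics on dimers holding RELA or REL. It was at 14.9, 13.0 and 16.5 CPM in the biopsies, against 6.24 and 6.07 CPM in the controls. The biopsies lay apart from the controls and differed less among themselves than those of NFKBIA. The rise was 2.40-fold (log2 1.26 ± 0.17, edgeR adjusted p = 0.00216), and it too stayed called without each library in turn, with adjusted p from 0.00225 to 0.0393. NFKBIE overlaps the protein-coding gene TMEM151B in the annotation.

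TNFAIP3 encodes a ubiquitin-editing enzyme that shuts down signalling from tumour necrosis factor and Toll-like receptors upstream of the IkB kinase. It was at 19.4, 12.4 and 21.5 CPM in the 12, 24 and 48 h biopsies, against 12.3 and 10.4 CPM in the controls. The 24 h biopsy was level with control replicate 1, and the difference over all 3 biopsies missed the threshold (log2 0.64 ± 0.25, edgeR adjusted p = 0.081). Without the 24 h biopsy it was called at log2 0.84 (edgeR adjusted p = 0.0193).

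NFKBIZ and BCL3 encode nuclear IkB proteins, which bind NF-kB dimers on DNA and can act as co-activators or repressors. NFKBIZ was at 17.3, 9.18 and 12.0 CPM in the biopsies, against 15.8 and 15.4 CPM in the controls. The 12 h biopsy was above and the other biopsies below the controls, so the groups overlapped (log2 -0.28 ± 0.26, edgeR adjusted p = 0.415). Without the 12 h biopsy NFKBIZ was lower than in the controls (log2 -0.56, edgeR adjusted p = 0.037). BCL3 was at 9.78, 6.17 and 7.17 CPM in the biopsies, against 2.83 and 3.82 CPM in the controls. It rose 2.32-fold (log2 1.21 ± 0.28, edgeR adjusted p = 0.015) with no overlap, although the controls differed by 35% of the lower and the call was lost without control replicate 1 (log2 1.01, edgeR adjusted p = 0.128) and without control replicate 2 (log2 1.44, adjusted p = 0.077).

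**Figure D2:**
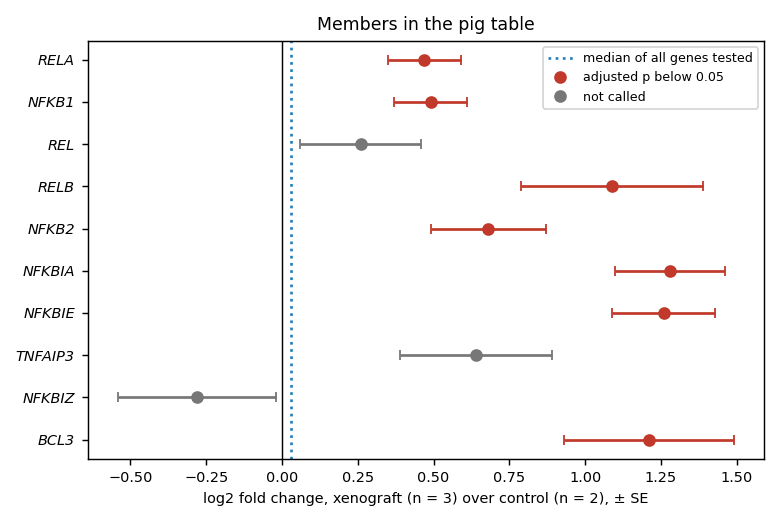
Fitted log2 fold change of the 3 xenograft biopsies over the 2 controls for each gene (horizontal axis), with approximate SE bars, red where the adjusted p was below 0.05 and grey otherwise; the dotted line is the median of all genes tested, 0.03. NFKBIA at 1.28, NFKBIE at 1.26, BCL3 at 1.21 and RELB at 1.09 lie farthest to the right, and NFKBIZ at -0.28 lies left of 0.

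The balance between these genes was also read inside each library, as counts per 100 RELA counts, which needs no scaling between libraries. NFKBIA stood at 157, 124 and 148 counts per 100 RELA counts in the 12, 24 and 48 h biopsies, against 87.4 and 76.9 in the controls. NFKBIE stood at 21.9, 22 and 27.3, against 14.5 and 12.8 in the controls. Both inhibitors were thus higher relative to RELA in each biopsy than in either control. BCL3 stood at 14.4, 10.5 and 11.9 in the biopsies, against 6.55 and 8.09 in the controls, and RELB at 16.2, 9.98 and 17.6, against 9.96 and 9.14. For RELB the 24 h biopsy and control replicate 1 were almost equal. NFKBIZ ran the other way, at 25.4, 15.6 and 19.9 per 100 RELA counts in the biopsies, against 36.5 and 32.6 in the controls. The ratios of NFKB1, NFKB2, REL and TNFAIP3 to RELA overlapped between the groups. How many of all genes separate the groups in their ratio to RELA was not computed. In CPM, all 3 biopsies lay above both controls for 33.7% of all genes tested.

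Each biopsy was next set against the controls on its own. In these comparisons only the control pair measures spread, which edgeR moderates by a trend over all genes. A single biopsy is taken to vary likewise, and the same controls enter all 3. At each time DESeq2 called fewer genes than edgeR, both among the 10 genes and over all genes tested. At 12 h 9 of the 10 genes were higher and 0 lower by edgeR (0 lower also at an unadjusted p under 0.05 and by DESeq2), where 28.5% of all genes tested were called higher and 28.2% lower. NFKBIZ was the gene not called at 12 h (log2 0.15 ± 0.18, edgeR adjusted p = 0.508), and REL was called at log2 0.44 ± 0.19 (edgeR adjusted p = 0.0418). DESeq2 called 8 higher at 12 h, without REL (adjusted p = 0.25). BCL3 at log2 1.56 ± 0.22 and NFKBIA at log2 1.53 ± 0.15 were highest at this time (edgeR adjusted p = 5.88e-11 and 2.38e-22).

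At 24 h 5 genes were higher and 1, NFKBIZ, was lower (log2 -0.76 ± 0.19, edgeR adjusted p = 0.000283), where 24.2% and 23.3% of all genes tested were called in those directions. The 5 were NFKBIE (log2 1.08 ± 0.19), NFKBIA (log2 0.98 ± 0.15), BCL3 (log2 0.90 ± 0.23), NFKB1 (log2 0.40 ± 0.15) and RELA (log2 0.38 ± 0.15). DESeq2 called 2 of these 5 as higher, NFKBIA and NFKBIE. At 48 h 8 genes were higher and 0 lower by edgeR (1 lower at an unadjusted p under 0.05 and 0 by DESeq2), where 26.8% and 24.7% of all genes tested were called. DESeq2 called 6 higher at 48 h, without NFKB1 (adjusted p = 0.0502) and RELA (adjusted p = 0.0831). NFKBIE at log2 1.42 ± 0.19, RELB at log2 1.30 ± 0.21 and NFKBIA at log2 1.27 ± 0.15 led at this time. REL (log2 0.05 ± 0.20, edgeR adjusted p = 0.858) and NFKBIZ (log2 -0.37 ± 0.19, edgeR adjusted p = 0.0835) were not called.

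No steady trend over time was detectable within the graft. The change per 24 h over the 12, 24 and 48 h biopsies ran from log2 -0.26 to 0.18, and 0 of the 10 genes were called by edgeR, 0 at an unadjusted p under 0.05 and 0 by DESeq2. Over all genes tested 4.33% were called in this comparison. With 3 biopsies a straight line passes over a dip, and the 24 h biopsy was the lowest of the 3 biopsies for 9 of the 10 genes, a position it held in 27.9% of all genes tested. The exception was REL, which was lowest at 48 h.

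The steps between consecutive biopsies were therefore compared, a choice made after the counts had been seen. Both steps rest on the same 24 h biopsy, so they are not independent of each other. Of all 12620 genes tested, 6259 had positive fold changes from 12 h to 24 h and 6435 from 24 h to 48 h. Each step sets 1 library against 1 library. Its error is taken from how far the controls lay apart, moderated over all genes. That spread may be technical, so the calls do not measure how far repeat biopsies would differ. From 12 h to 24 h all 10 genes had negative fold changes and 4 were called lower, where 4.85% of all genes tested were called lower. These were NFKBIZ (log2 -0.91 ± 0.21, edgeR adjusted p = 0.000674), RELB (log2 -0.90 ± 0.25, adjusted p = 0.00554), NFKBIA (log2 -0.55 ± 0.17, adjusted p = 0.0182) and TNFAIP3 (log2 -0.65 ± 0.21, adjusted p = 0.0215). From 24 h to 48 h 3 genes were called higher, where 5.52% of all genes tested were. These were TNFAIP3 (log2 0.79 ± 0.21, edgeR adjusted p = 0.00397), RELB (log2 0.86 ± 0.25, adjusted p = 0.0124) and NFKB2 (log2 0.57 ± 0.19, adjusted p = 0.0369). DESeq2 called 1 of the 4, NFKBIZ, for the first step and 0 of the 3 for the second, where all 3 had an unadjusted p under 0.05. RELA and NFKB1 had log2 values between -0.20 and 0.09 over both steps, and neither was called.

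**Figure D3:**
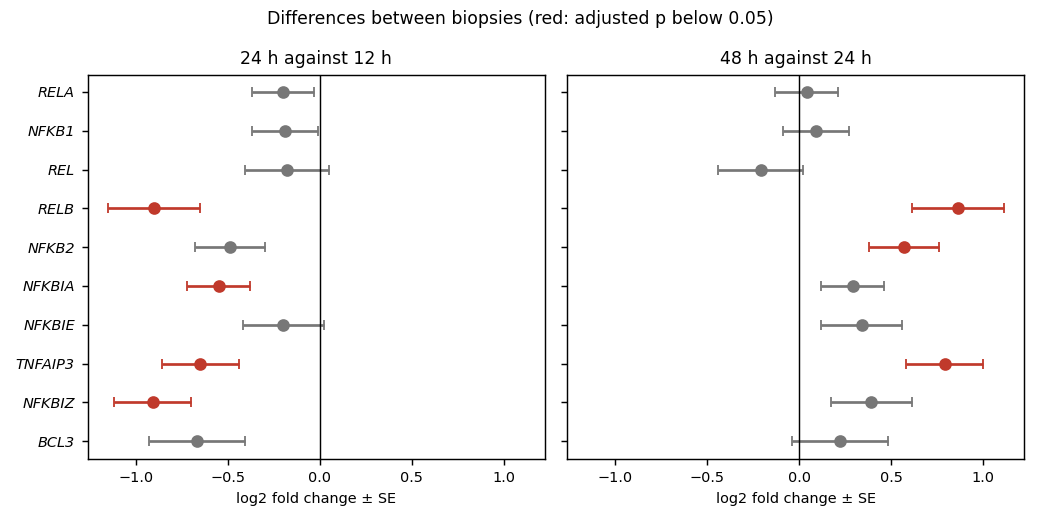
Log2 fold change with approximate SE bars for the 24 h over the 12 h biopsy (left) and for the 48 h over the 24 h biopsy (right), with called genes in red. All 10 points lie below 0 on the left, and 9 of the 10 above 0 on the right, where REL is the exception at -0.21.

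Markers of the cell types in the tissue also differed between the libraries. The summed level of 12 kidney epithelial markers was 8044, 11620 and 6862 CPM in the 12, 24 and 48 h biopsies, against 12520 and 12030 CPM in the controls. UMOD, a marker of the thick ascending limb, and CALB1, a marker of the distal tubule, made up most of the sum at 24 h. UMOD was at 5130, 4990 and 3380 CPM in the biopsies, against 2660 and 2540 CPM in the controls, and CALB1 at 967, 3260 and 830 CPM, against 1850 and 1560 CPM. Against the controls 7 of the 12 epithelial markers were lower and 4 higher at 24 h by edgeR, so the sum does not describe most of them. Over all genes tested 23.3% were called lower and 24.2% higher at 24 h. From 12 h to 24 h 10 of the 12 had positive fold changes, where 6259 of all 12620 genes tested did. The summed level of 8 endothelial markers was 807, 928 and 864 CPM, against 465 and 367 CPM. PECAM1 alone was at 358, 397 and 379 CPM, against 116 and 89.8 CPM. In the graft 5 of the 8 were called higher and 0 lower by edgeR, where 18.5% and 19.0% of all genes tested were. KDR and EMCN overlapped the controls (log2 -0.14 and -0.01). The summed level of the 18 leukocyte markers found in the pig table, of 21 listed, was 300.4, 385.1 and 424.6 CPM, against 86.1 and 94.4 CPM. Most of this sum in the biopsies was CD163, a macrophage scavenger receptor gene, at 183, 245 and 247 CPM, against 13.2 and 14.5 CPM in the controls. Like CD163, the markers CSF1R, CD14, CD68, S100A8, S100A12, CSF3R and NKG7 lay above both controls in every biopsy. This pattern was shared by 33.7% of all genes tested, and S100A8 and S100A12 had 37 or fewer counts in every library. The T cell markers CD3E, CD3D, CD2, CD4 and CD8A lay below both controls in every biopsy. Of the 15 leukocyte markers tested 5 were higher and 5 lower in the graft by edgeR, where 18.5% and 19.0% of all genes tested were called. PTPRC, which encodes the common leukocyte antigen, stood at 12.8, 13.1 and 22.8 CPM in the biopsies, against 19.2 and 20.4 CPM in the controls. The leukocyte levels of the biopsies may include human reads, as described below. No leukocyte marker was at 0 in the biopsies, although CD79B and KLRD1 had 5 or fewer counts in every library. The part of these tissue differences in the levels of the 10 genes was not tested.

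Counts of the same libraries over the human genome were used to gauge human RNA in the biopsies. Control kidney should hold no human RNA, so its human counts give the background of pig reads that fit the human genome. The background predicted for a biopsy was its pig count multiplied by the human-to-pig count ratio of the pooled controls. Over the 11133 symbols with a mean of at least 10 counts in each table, the median of observed over predicted human counts was 1.17, 1.13 and 1.23 at 12, 24 and 48 h. Summed kidney epithelial markers were at 1.02, 0.98 and 1.03 times their prediction, and summed leukocyte markers at 5.31, 3.31 and 4.35 times. PTPRC had 2104, 1212 and 2814 human counts, where 62.4, 64.5 and 103 were predicted.

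All 10 genes had more human counts than predicted from the pooled controls in each biopsy. Most symbols did too, as the 25th percentile of observed over predicted over all 11133 symbols was 1.05, 1.03 and 1.08 at 12, 24 and 48 h. As multiples of the prediction the 10 genes separated by size. For RELA, NFKB1, NFKB2, RELB and NFKBIA the observed counts were 1.07 to 1.44 times the prediction, near the median of all symbols. These genes had 23.5 to 35.9 human counts per 100 pig counts in the controls, against 4.95 to 15.4 for the others. The same excess therefore gives them a lower multiple. As a percentage of the pig count, the excess at 48 h was 7.39% to 12.4% for these genes and 10.4% to 24.1% for the others. RELA had 1468, 1393 and 1406 human counts at 12, 24 and 48 h, where 1340, 1170 and 1110 were predicted. At 12 h this lay between the predictions from the ratio of each control alone, 1520 and 1150. NFKBIA had 2511, 1847 and 2448 human counts, where 2200, 1510 and 1700 were predicted. RELA was thus at 1.10, 1.19 and 1.27 times its prediction and NFKBIA at 1.14, 1.22 and 1.44 times.

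As a multiple of its prediction TNFAIP3 at 48 h stood highest among the 10 genes. It lay above 91.8%, 89.9% and 92.8% of all symbols at 12, 24 and 48 h, and REL above 92.4%, 89.8% and 89.8%. In counts the 48 h excess of NFKBIA was larger, at 745 against 347 for TNFAIP3. TNFAIP3 had 311, 152 and 479 human counts in the 12, 24 and 48 h biopsies, where 128, 82.4 and 132 were predicted, and 73 and 44 human counts in the controls. This came to 2.43, 1.84 and 3.64 times the prediction, with the 24 h biopsy lowest as in the pig table. REL had 157, 98 and 111 human counts, where 60.2, 53.4 and 42.5 were predicted, or 2.61, 1.83 and 2.61 times. NFKBIZ stood at 1.56, 1.74 and 2.07 times, NFKBIE at 1.75, 1.52 and 2.26 times and BCL3 at 1.33, 1.54 and 1.85 times. NFKBIE's control ratios were uneven, at 7.24 and 12.3 human counts per 100 pig counts.

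The human-to-pig count ratio was tested over all 11133 symbols with limma, 3 biopsies against 2 controls. It was higher for 5 of the 10 genes and lower for 0 (0 also at an unadjusted p under 0.05), where 28.8% of all symbols were called higher and 0.341% lower. The 5 were TNFAIP3 at 2.57-fold (log2 1.36 ± 0.30, adjusted p = 0.0277), REL at 2.44-fold (log2 1.29 ± 0.25, adjusted p = 0.0223), NFKBIZ at 1.78-fold (log2 0.83 ± 0.15, adjusted p = 0.018), NFKB1 at 1.30-fold (log2 0.38 ± 0.09, adjusted p = 0.0353) and NFKB2 at 1.21-fold (log2 0.28 ± 0.07, adjusted p = 0.038). The median over all symbols was log2 0.24, so NFKB1 and NFKB2 were near it. When each table was scaled by TMM before the ratio was taken, 3 genes stayed called, TNFAIP3, REL and NFKBIZ, and without control replicate 2 limma called 0 of the 10, with 6 at an unadjusted p under 0.05.

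**Figure D4:**
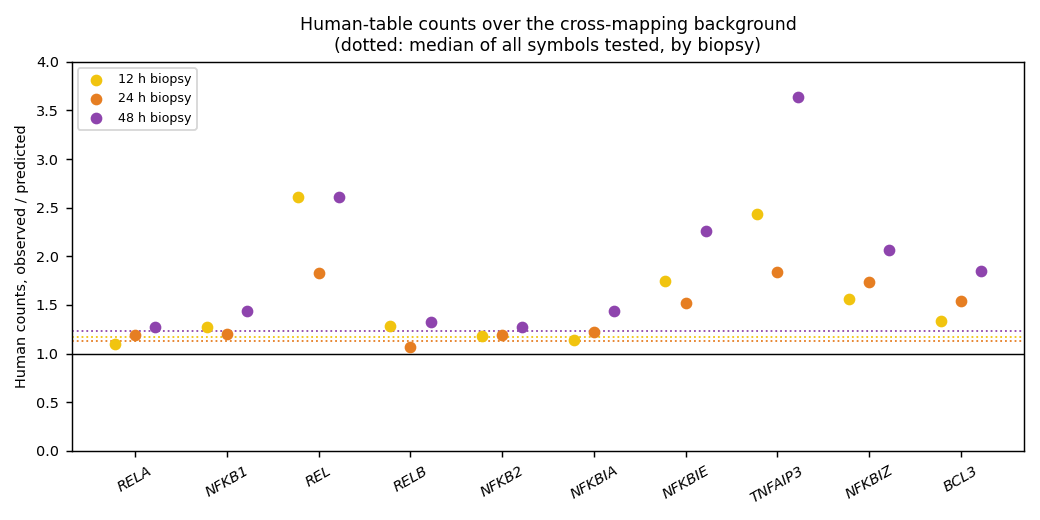
Human-table counts divided by the background predicted from the controls (vertical axis, from 0) for each gene, with 1 point per biopsy and dotted lines at the median of all symbols tested, 1.17, 1.13 and 1.23. TNFAIP3 at 48 h is highest at 3.64, while RELA, NFKB1, RELB, NFKB2 and NFKBIA stay between 1.07 and 1.44.

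Human reads can in turn be counted in the pig table, and how many do so cannot be read from the controls. Such reads raise the prediction, which is a multiple of the pig count, and so lower the excess. The human excess over prediction came to 2.40% to 24.1% of the pig count of the same gene and biopsy. The upper end was TNFAIP3 at 48 h, with an excess of 347 counts beside 1440 pig counts. The whole excess of every symbol was next taken off the pig counts of the biopsies. The same 7 genes were called higher, with NFKBIA at log2 1.24 and NFKBIE at log2 1.21 (edgeR adjusted p = 0.0052 and 0.00303). Over all genes 2155 were called higher and 2278 lower after the subtraction. REL at 12 h was then no longer called (log2 0.36, edgeR adjusted p = 0.112). TNFAIP3 was no longer called in either step between biopsies, at log2 -0.58 from 12 h to 24 h and log2 0.55 from 24 h to 48 h (edgeR adjusted p = 0.0507 and 0.0848), while BCL3 was then called lower in the first step (log2 -0.73, edgeR adjusted p = 0.0402).

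Genes that carry signals to NF-kB were examined from a list of 38 receptors, adaptors and kinases, all of them tested. In the graft 16 were higher and 1 lower, with a median log2 fold change of 0.31, against 18.5% and 19.0% of all genes and a median of 0.03. Fewer were called higher without control replicate 1 or 2, as was so over all genes tested. With the human excess taken off the biopsies 12 were called higher, where 2155 of all genes were. The human-to-pig ratio was called higher by limma for 22 of the 38, at a median of log2 0.87. Over all symbols 28.8% were called higher, at a median of log2 0.24. TNFRSF1B, encoding the second receptor of tumour necrosis factor, was at 120, 86.7 and 91.0 CPM in the biopsies, against 14.0 and 12.2 CPM in the controls, and rose 7.57-fold (log2 2.92 ± 0.19, edgeR adjusted p = 0.000283). Its human-to-pig ratio was 26.2-fold higher, and with the human excess taken off the rise was log2 2.81. TNFRSF1A, encoding the main receptor of tumour necrosis factor, rose 2.12-fold (log2 1.08 ± 0.14, edgeR adjusted p = 0.00163). LTBR, a receptor of the alternative pathway, rose 1.92-fold (log2 0.94 ± 0.11, edgeR adjusted p = 0.00143).

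Among 85 pathway genes, the 3 whose profile over the 5 libraries lay closest to that of NFKBIA were IRAK2, a kinase of interleukin 1 and Toll-like receptor signalling, the IkB kinase family gene IKBKE and the interleukin 1 receptor gene IL1R1, at distances of 0.24, 0.27 and 0.31 on the log2 scale after centring. The target gene IRF1 followed at 0.32. As these genes were chosen for their likeness to NFKBIA over the same libraries, their values are a description. IL1R1 was at 72.9, 44.5 and 52.8 CPM in the 12, 24 and 48 h biopsies, against 25.1 and 18.8 CPM in the controls. IKBKE was at 4.10, 2.95 and 4.23 CPM in the biopsies, against 1.41 and 1.5 CPM in the controls. IRAK2 was at 8.24, 6.80 and 7.75 CPM, against 3.30 and 2.88 CPM. The catalytic IkB kinase gene IKBKB, named after its values were seen, rose 1.81-fold (log2 0.86 ± 0.15, edgeR adjusted p = 0.00521).

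Other inhibitors and negative regulators of the pathway were mostly not called. Of 18 tested genes, from 20 listed, 4 were higher and 1 lower, with a median log2 fold change of -0.01. Over all genes tested 18.5% were called higher and 19.0% lower, so the count of higher genes was near the background. Fewer genes of the list were called higher without control replicate 1 or 2, as was so over all genes tested. TNIP3, which encodes a partner of the TNFAIP3 protein, had 284, 114 and 139 counts in the 12, 24 and 48 h biopsies, against 7 and 9 counts in the controls. It rose 17.3-fold (log2 4.11 ± 0.57, edgeR adjusted p = 0.00246) and stayed called without each library. The deubiquitinase gene OTUD7B rose 1.66-fold and N4BP1 1.69-fold (edgeR adjusted p = 0.00606 and 0.00949), and COMMD1, whose product promotes the turnover of RELA, was 1.56-fold lower (log2 -0.64 ± 0.13, edgeR adjusted p = 0.01). None of OTUD7B, N4BP1 and COMMD1 was called when either control was left out, at log2 0.67 to 0.79, 0.67 to 0.85 and -0.69 to -0.60.

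Textbook NF-kB target genes went both ways, with more called higher than lower. Of 29 tested genes, from 39 listed, 12 were higher and 2 lower, with a median log2 fold change of 0.82, where 18.5% of all genes tested were called higher and 19.0% lower. The count of higher genes was 4 without control replicate 1 and 2 without control replicate 2, where 738 and 464 genes were called higher in all, and 7 with the human excess taken off the biopsies. CSF1, the macrophage growth factor gene, was at 62.8, 35.7 and 40 CPM in the 12, 24 and 48 h biopsies, against 10.8 and 8.20 CPM in the controls, and rose 4.86-fold (log2 2.28 ± 0.29, edgeR adjusted p = 0.00216). ICAM1, an endothelial and epithelial adhesion molecule gene, rose 3.66-fold (log2 1.87 ± 0.28, edgeR adjusted p = 0.00387), at adjusted p = 0.0564 without control replicate 2. TNFAIP2 rose 2.72-fold (log2 1.44 ± 0.18, edgeR adjusted p = 0.00177), but its human-to-pig ratio was 5.75-fold higher and with the human excess taken off it was not called (log2 0.66, adjusted p = 0.315).

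The target genes that fell were CXCL2 and PTGS2. The neutrophil chemokine gene CXCL2 was at 10.8, 11.0 and 8.94 CPM in the biopsies, against 33.7 and 30.4 CPM in the controls, and was 3.13-fold lower (log2 -1.65 ± 0.15, edgeR adjusted p = 0.000665). The cyclooxygenase gene PTGS2 was at 1.88, 0.934 and 1.03 CPM, against 4.79 and 3.42 CPM, and was 3.20-fold lower (log2 -1.68 ± 0.38, edgeR adjusted p = 0.0138). Both genes were below the controls in every biopsy, but PTGS2 was not called without control replicate 1 or 2 (log2 -1.42 and -1.90, edgeR adjusted p = 0.122 and 0.0717).

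**Figure D5:**
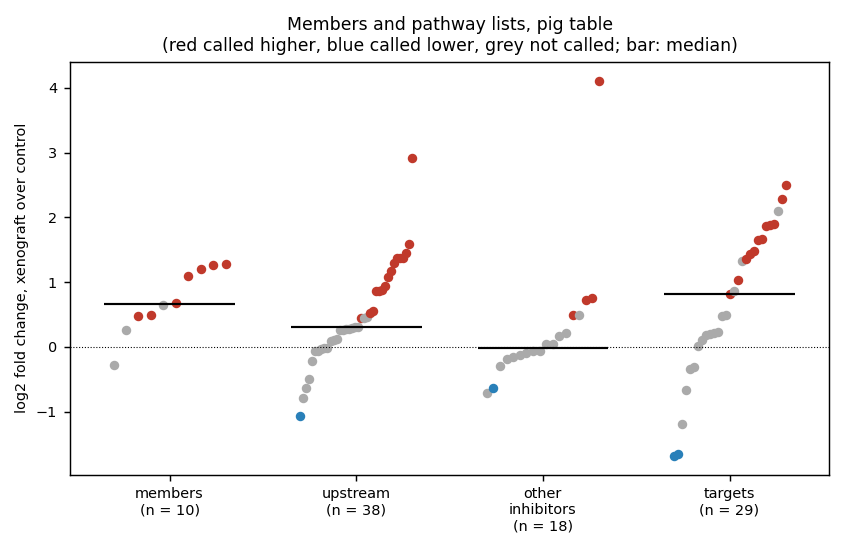
Log2 fold change of xenograft over control (vertical axis) for the 10 genes and the 3 pathway lists, 1 point per gene, red where called higher, blue where called lower and grey where not called, with a bar at each median. The medians are 0.66 for the 10 genes, 0.31 for upstream genes, -0.01 for other inhibitors and 0.82 for target genes.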

How the data were processed

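The authors deposited a pig and a human table of raw counts by gene symbol, judged not normalized from their whole numbers and differing totals. Libraries were depleted of ribosomal RNA, per the labels' protocols, and hg38 is the build in the submitters' processing notes. The aligner, counter and strand setting are not given in the sources used here, nor is whether the genomes competed for reads. For the pig table edgeR 4.0.16 was used in R 4.3.3: filterByExpr (minimum count 10, minimum total 15), TMM, and a robust quasi-likelihood test with Benjamini-Hochberg adjustment at 0.05. Residual degrees of freedom were 3 for xenograft against control, 2 for the slope and 1 for comparisons of single biopsies. SE is approximate, the size of the log2 fold change over the root of F. Ratios were tested with limma 3.58.1 on log2 counts with a pseudocount of 0.5, robustly and with an intensity trend. DESeq2 1.42.0 was an alternative. The scripts were tested on simulated data. XIST, TSIX and Y-linked genes were removed from the human table. No sequences are shown.

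The 10 genes and all lists were chosen with earlier results of these data known. Named list genes were the 3 called genes with the smallest adjusted p in each direction and the 3 nearest in profile to NFKBIA. Of the 97 genes on the 3 pathway lists, 87 were in the pig table. Values of some single genes of the lists are not reported here, though the lists' counts and sums include them.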

Additional observations from a re-analysis of the deposited data

How the results depend on the processing

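No paired analysis was possible because the biopsies are single libraries whose labels carry no replicate number. DESeq2 size factors, no filter on low counts and leaving out mitochondrial genes changed no call of the 10 genes in the pig table. Most calls were lost when a control was left out, which also leaves fewer residual degrees of freedom, while fold changes such as that of RELB (log2 1.09 in both fits) held. Leaving out each library in turn, the ranges for xenograft against control were 2 to 8 of the 10 genes higher and 0 to 1 lower, 4 to 17 and 0 to 2 for upstream genes, 1 to 5 and 0 to 2 for other inhibitors, 2 to 14 and 1 to 3 for target genes, and 464 to 2633 and 727 to 2633 over all genes. DESeq2 and the subtraction of the human excess, which was added after seeing the data, each gave 2 upstream genes lower, and the subtraction gave 7 target genes higher. For the slope, leaving out a library gave 0 to 3 of the 10 genes higher and 0 to 4 lower, and 349 to 1728 and 83 to 1037 over all genes, while DESeq2 gave 265 lower. Slopes changed sign without the 12 h biopsy for NFKB1 (0.09), RELA (0.03), NFKBIA (0.29), NFKBIZ (0.39) and BCL3 (0.21), without the 24 h biopsy for RELB (-0.03), and without the 48 h biopsy for NFKB2 (-0.97), RELB (-1.80), NFKBIE (-0.39) and TNFAIP3 (-1.29); their ranges ran from -0.37 to 0.09 for NFKB1, -0.97 to 0.56 for NFKB2, -0.40 to 0.03 for RELA, -1.80 to 0.85 for RELB, -1.09 to 0.29 for NFKBIA, -0.39 to 0.34 for NFKBIE, -1.82 to 0.39 for NFKBIZ, -1.29 to 0.79 for TNFAIP3 and -1.33 to 0.21 for BCL3.

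By DESeq2, 2 of the 10 genes were higher at 24 h (1964 higher and 1903 lower over all genes), 1 was lower at 24 h against 12 h (361 and 166) and 0 higher at 48 h against 24 h (201 and 117). With the human excess subtracted, 1 gene, NFKBIZ, was lower at 48 h, and REL at 48 h was at -0.01. For the human-to-pig ratio, TMM scaling gave 3 of the 10 genes higher (1385 higher and 1206 lower over all symbols, as the median of all symbols went to -0.06, against 0.24) and put NFKB2 at -0.02, RELA at -0.04 and RELB at -0.02. Limma without the trend gave 2 genes higher and 1709 symbols higher, and a pseudocount of 5 gave 73 symbols lower. Leaving out each library gave 0 to 4 genes higher, 382 to 2869 symbols higher and 10 to 67 lower. The cause of these changes was not tested.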
